A study of Arabidopsis thaliana with 6 samples.

Results

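The JAG binding regions described here lie on the end of chromosome 1 of Arabidopsis thaliana, past position 23827070 on TAIR10. They were taken from the peak lists of replicates 1 and 2, which held 244 and 183 peaks there. Peaks of both lists that overlapped by at least 1 bp were merged, and the merged region over the tagged gene JAG (25679864 to 25692819) was left out. Of the 302 regions that remained, 113 held a peak of each list and are called shared (37.4%, against 34% of the regions of the rest of the genome), 125 were found in the list of replicate 1 alone and 64 in that of replicate 2 alone. In the whole series the same 2 lists gave 1189 shared regions.

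The study immunoprecipitated chromatin with antibodies to green fluorescent protein (GFP). In the JAG-GFP samples, the jag-2 mutant was complemented by a genomic fusion of JAG to GFP under the JAG promoter (JAG:JAG-GFP). The wt samples were wild-type Landsberg erecta plants without the tag, which served as the negative control. Tissue of both groups was inflorescence tips with only unopened buds, grown under long days, and each group had 3 samples, of which replicates 1 and 2 are used here. How many transgenic lines were used is not stated. The labels do not say whether replicates came from separate sets of plants, so differences between the lists may be technical. The list of replicate 3 ended at 23827070 on chromosome 1, with a last peak from 23825968 that scored 1.9. The regions of lists 1 and 2 just before that position were 3 regions of replicate 1 alone, with scores of 1.93, 1.94 and 1.95, and the first region past it (23893471 to 23893953) scored 2.96 in replicate 1 and 2.67 in replicate 2.

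JAG is a C2H2 zinc finger transcription factor that promotes growth of sepals, petals, stamens and leaves. It carries an EAR motif, a short peptide through which plant repressors recruit co-repressors, and its known targets include genes that hold back cell division. Factors of this kind act from sites in promoters, introns and flanking DNA, so the gene nearest to a site is a neighbour and not by that fact a target. Each peak carries a score set by the authors, on a scale that no label or header explains. Scores serve here to order the peaks of a list.

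The strongest shared regions came first. The best lay within 1000 bp of AT1G76170, a gene without a symbol in the gene table, with sks5, a member of the SKU5-similar family, within 3000 bp as well (28582609 to 28583952). It scored 6.82 in replicate 1 and 6.37 in replicate 2 and was the 4th and the 5th highest peak of the whole lists. The summits of the lists, meaning the positions of the peak maxima, lay 3 bp apart there. The second (25296720 to 25297704) scored 4.81 in replicate 1 and 4.79 in replicate 2, with summits 1 bp apart. It lay within 1000 bp of AT1G67510, and REV3, the catalytic subunit of a DNA polymerase that copies damaged DNA, was also within 3000 bp. These 2 regions stood apart from the others, whose scores stayed at or below 3.70 in replicate 1 and 4.41 in replicate 2.

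**Figure D1:**
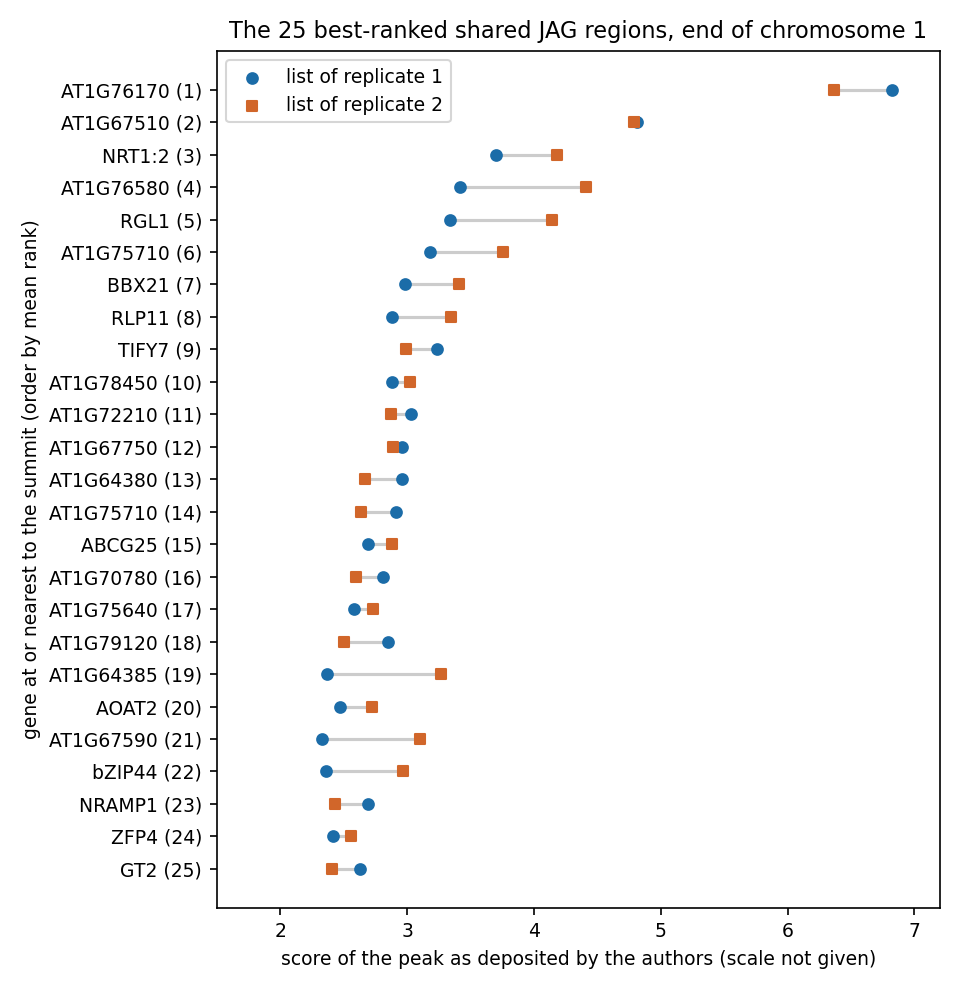
Scores of the 25 best-ranked shared regions, with 1 row per region, the list of replicate 1 as circles and that of replicate 2 as squares; the number in brackets is the order by mean rank. AT1G76170 leads with 6.82 and 6.37, and GT2, the 25th, has 2.63 and 2.41.

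Transporter genes held the summits of 3 more of the best 25 regions, a grouping made after the neighbours were seen and with no count over all genes. The summit of the third (26298763 to 26299876) was in NRT1:2, which encodes a nitrate transporter that also imports the hormone abscisic acid, with scores of 3.70 in replicate 1 and 4.18 in replicate 2. ABCG25, an exporter of abscisic acid, held the summit of the 15th region (27084823 to 27086022), with scores of 2.69 and 2.88. NRAMP1, a manganese transporter, held that of the 23rd (30375267 to 30377262), with 2.69 and 2.43. Each of these 3 genes had its summit inside the gene body. NRT1.7, another nitrate transporter, was noticed after its values were seen: its region (26317376 to 26318528) scored only 1.90 in replicate 1 and 2.28 in replicate 2.

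Gibberellin genes were neighbours of a pair of strong regions, though neither gene lay within 1000 bp of the summit. They were RGL1, a DELLA protein that represses growth, and ATGA2OX1, an enzyme that inactivates gibberellin. The 5th region (24743628 to 24744615) scored 3.34 in replicate 1 and 4.14 in replicate 2. RGL1 was its nearest gene, but no protein-coding gene lay within 3000 bp of the summit. Region 10 (29513933 to 29516524) scored 2.88 in replicate 1 and 3.02 in replicate 2 and lay within 3000 bp of ATGA2OX1, with AT1G78450 nearer. Replicate 2 gave the higher score in both.

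Other named neighbours among the best 25 included transcription factor genes, again grouped after they were seen. BBX21, a B-box factor of the light response, held the summit of the 7th region (28366596 to 28367862; 2.98 in replicate 1 and 3.41 in replicate 2). AT1G72210, a gene also listed as bHLH96, held that of the 11th (27181199 to 27182536; 3.03 and 2.87). A weaker shared region (27179107 to 27180861; 1.86 and 1.94) also had its summit in AT1G72210. The 22nd region (28293574 to 28294661; 2.36 and 2.97) lay within 3000 bp of bZIP44, a basic leucine zipper factor. ZFP4, a C2H2 zinc finger gene as JAG is, held the 24th (24620810 to 24622261; 2.42 and 2.56). GT2, a trihelix factor, was nearest to the 25th (28874724 to 28881165; 2.63 and 2.41), where the summits of the highest peaks of the lists lay 1346 bp apart. It was also nearest to the weaker region before that one (28871516 to 28873474; 1.88 and 2.10). The 9th region (26656542 to 26663346; 3.24 and 2.99) was 6805 bp wide and lay within 1000 bp of TIFY7, also known as JAZ9, a repressor of the jasmonate response, with the cellulase gene GH9B1 within 3000 bp.

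The other regions of the best 25 had nearest genes that, apart from RLP11 and AOAT2, carry no symbol in the gene table. These genes were not sorted by family, so transcription factor genes may be among them. AT1G76580 was nearest to the 4th (28732643 to 28734290), which scored 3.42 in replicate 1 and 4.41 in replicate 2. AT1G75710 was nearest to the 6th (28425283 to 28428183; 3.18 and 3.76) and held the summit of the 14th, just beyond it (28428453 to 28430572; 2.91 and 2.64). RLP11, a receptor-like protein gene, was nearest to the 8th (26905016 to 26905824; 2.88 and 3.35). The nearest genes of regions 12, 13, 16, 17, 18, 19 and 21 were AT1G67750, AT1G64380, AT1G70780, AT1G75640, AT1G79120, AT1G64385 and AT1G67590, with scores between 2.33 and 2.96 in replicate 1 and between 2.50 and 3.27 in replicate 2. AOAT2, an aminotransferase of photorespiration, held the 20th (26615008 to 26616132; 2.47 and 2.72). Of these 25 regions, 7 were among the first 100 peaks of both whole lists.

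The full set of 113 held mostly low scores. They ran from 1.86 to 6.82 in replicate 1, with a median of 2.15, and from 1.89 to 6.37 in replicate 2, with a median of 2.17. The medians over the 1076 shared regions of the rest of the genome were 2.24 and 2.23. Of the 113, 6 scored above 3 in both lists, beside 69 of the 1076 in the rest of the genome. Another 15 scored below 2 in both (13.3%, against 7.71% in the rest of the genome). Scores took few distinct values, 166 among the 2620 peaks of replicate 1 and 178 among the 2143 of replicate 2, so many regions tied and the order of the weaker ones is not resolved. Spearman's rho between the lists was 0.54 over the 113 regions and 0.56 over the 1076, given as a description of regions that share their libraries. The higher score came from replicate 1 in 53 regions and from replicate 2 in 60, and the scores differed by at most 1.2 times in 85.

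**Figure D2:**
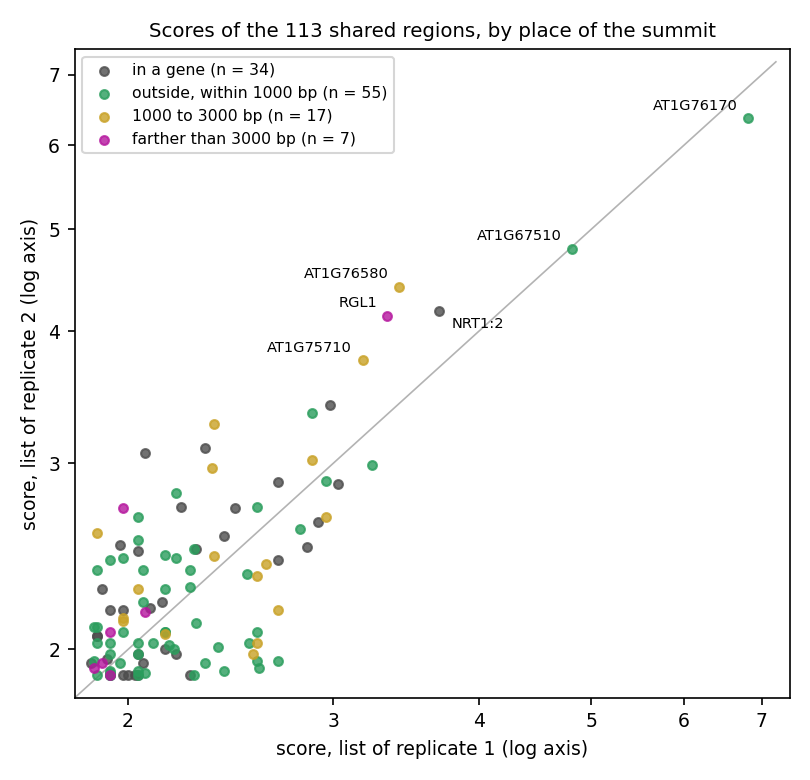
Score in the list of replicate 1 (horizontal, log axis) against that of replicate 2 (vertical, log axis) for the 113 shared regions, coloured by where the summit lies relative to protein-coding genes; the line marks equal scores. Most points lie under 3 on both axes and 6 lie above it on both. Regions of all 4 classes of place occur at low scores, and the 2 highest points lie outside genes and within 1000 bp.

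Summits of the lists lay a median of 96 bp apart in the shared regions of this stretch, against 88.5 bp in the rest of the genome. In 57 of 113 regions they were at most 100 bp apart (50.4%, against 53.8%), and in 11 more than 1000 bp apart (9.73%, against 4.55%). The widest gap, 2060 bp, was in the region over AT1G79120 (29760338 to 29767569), which held 5 peaks and was also the widest of all at 7232 bp. The regions had a median width of 1452 bp.

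Recurrence was read by score. Over all regions of the stretch 37.4% were shared (95% Wilson interval 32.1 to 43.0%), against 34% in the rest of the genome (32.4 to 35.7%), and the shares of the other chromosome parts ran from 31.1% on chromosome 1 before the stretch to 37.2% on chromosome 2. The interval of the stretch took in every one of these shares but 31.1% and 31.6% (chromosome 3). Of the peaks in the highest score quartile of their whole list, 44 of 59 were shared in replicate 1 (74.6%, 62.2 to 83.9%) and 46 of 50 in replicate 2 (92%, 81.2 to 96.8%). In the rest of the genome these shares were 85.0% and 89.2%. In the lowest quartile 14 of 36 peaks of replicate 1 (38.9%, 24.8 to 55.1%) and 25 of 50 of replicate 2 (50%, 36.6 to 63.4%) were shared, against 23.9% and 33.8% in the rest of the genome. Shared peaks had a higher median score percentile than single-list peaks by 26.2 in replicate 1 and 17.6 in replicate 2, against 32.7 and 31.5 in the rest of the genome. Peaks are not replicates and the 2 lists give no spread over samples, so no test was made of these differences. Intervals cover counting error only.

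**Figure D3:**
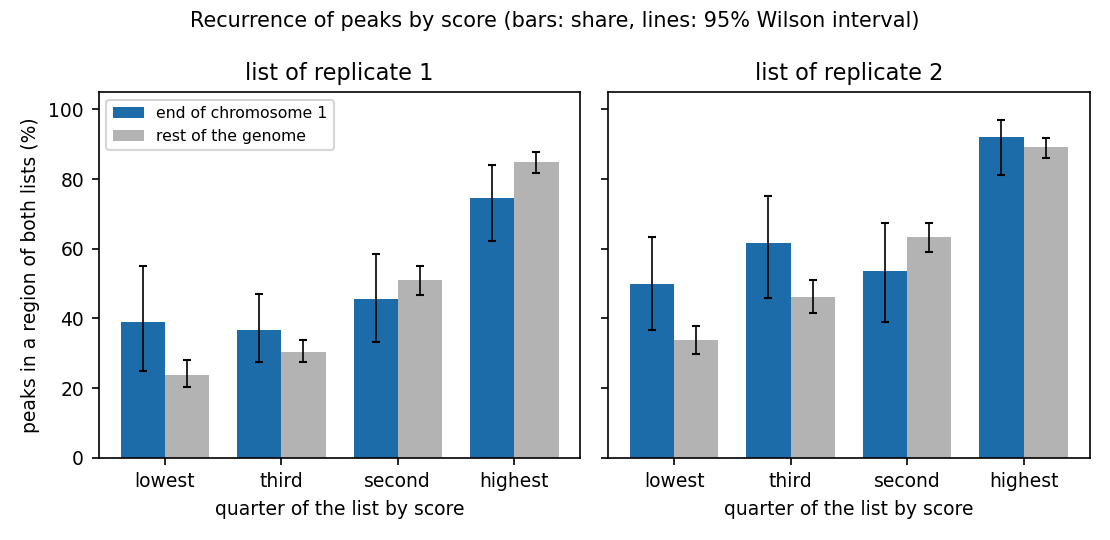
Share of peaks that fall in a region of both lists (vertical, percent) by score quartile of the whole list, for the end of chromosome 1 and for the rest of the genome, with replicate 1 on the left and replicate 2 on the right; lines are 95% Wilson intervals. The highest quartile reaches 74.6% and 92% on the end of chromosome 1, and the lowest 38.9% and 50%.

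Placed relative to protein-coding genes, 55 of the 113 shared summits lay outside a gene and within 1000 bp of one (48.7%, 95% Wilson interval 39.7 to 57.8%), and 34 lay inside a gene (30.1%, 22.4 to 39.1%). Another 17 were 1000 to 3000 bp away (15.0%) and 7 farther (6.19%, 3.03 to 12.2%). Genes take up 65.3% of the bases of the stretch, places outside and within 1000 bp 22.7%, and places beyond 3000 bp 1.98%. Single-list summits had 47.1% outside and within 1000 bp and 35.4% inside genes, and shared summits of the rest of the genome had 48.2% and 27.0%. The intervals of the shared and the single-list summits of the stretch overlapped in all 4 classes. Among the 25 best regions, 10 had their summit in a gene, 7 within 1000 bp, 7 from 1000 to 3000 bp and 1 farther, against 24, 48, 10 and 6 of the other 88. Upstream and downstream sites could not be separated, since the strand of the genes was not at hand.

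**Figure D4:**
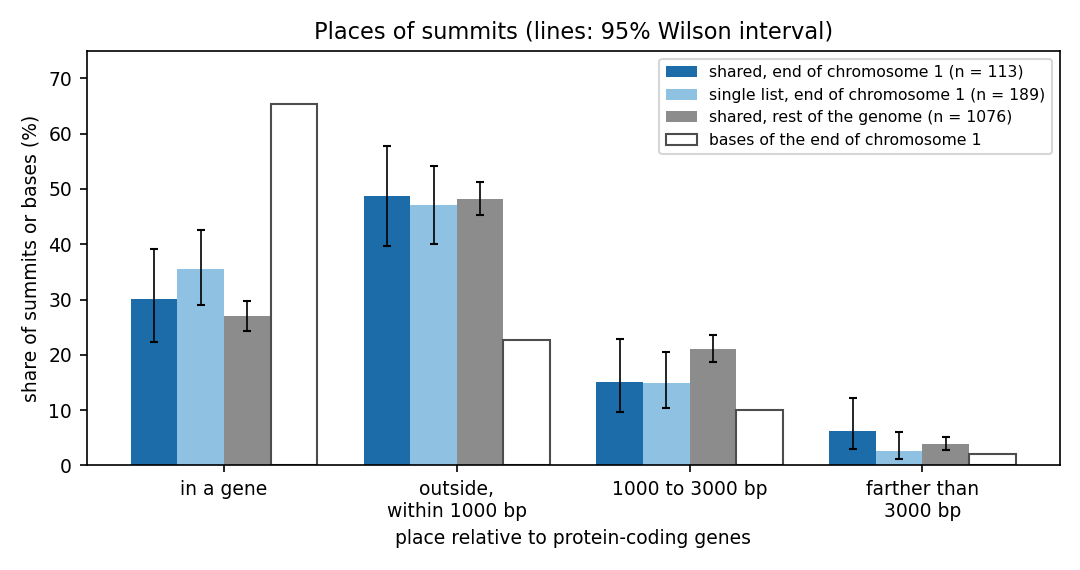
Share of summits in each class of place (vertical, percent) for shared and single-list regions of the end of chromosome 1 and shared regions of the rest of the genome, with the share of bases of the stretch as open bars; lines are 95% Wilson intervals. Summits inside genes make up 30.1% of the shared set where genes hold 65.3% of the bases.

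The 7 distal regions differed widely in score. That near RGL1 was the strongest, and the next (29440643 to 29442001; 1.98 in replicate 1 and 2.72 in replicate 2) had TSD2, a gene needed for pectin and cell adhesion, as its nearest. The remaining 5 scored at most 2.17 and had AT1G64380, AT1G68570, AT1G71870, XYL1, a xylosidase of the cell wall, and SUC1, a sucrose carrier, nearest. The summit of the region by AT1G64380 (23895107 to 23896523; 2.07 and 2.17) lay in a long noncoding RNA gene. Of all 113 merged summits, each the midpoint of the summits of the lists, 8 lay in a gene that makes no protein. In 4 it was a long noncoding RNA gene, and the regions near CLV1 and JAZ6 were among these 4. The midpoint need not be a summit of either list: by OPR1 (28774154 to 28777033), among the 8, the list summits lay 2003 bp apart. The share of such genes over all bases was not computed, so the counts describe these regions only.

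Genes for microRNAs, short RNAs that silence target transcripts, were looked at after their positions had been seen. Of 23 such genes in the stretch, 3 had a shared summit within 1000 bp, where 6.19% of the protein-coding genes of the stretch had one. MIR159a, whose product restrains GAMYB transcription factors, held the merged summit of a region (27712139 to 27715159) that scored 1.98 in replicate 1 and 2.13 in replicate 2. The summit of replicate 2 was in the microRNA gene and that of replicate 1 was 179 bp away and outside it. CDKD1;1 was the nearest protein-coding gene. MIR163 lay within 1000 bp of a summit (24882794 to 24885281; 1.93 and 1.89). MIR775 held the merged summit of another (29420578 to 29423705; 2.07 and 1.90), but the summits of the lists were 969 bp apart and neither was in it. All 3 were weak regions, with the 74th, 88th and 106th place by mean rank.

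Along the stretch, shared regions were found throughout. The 7 successive megabases from its start, the last of them only in part, held 12, 20, 15, 18, 22, 18 and 8. Per 100 protein-coding genes that was between 4.55 and 8.47, and 6.41 over the whole stretch, against 4.19 in the rest of the genome and between 3.56 and 4.57 on its 5 chromosome parts. The longest stretch without a shared region, 259 kb, ran from 27715159 to 27973894. Of 112 gaps between neighbouring shared regions 20 were under 5 kb (17.9%, against 14.6% in the rest of the genome), and these joined 38 regions into 18 groups. AGO7, an ARGONAUTE protein of the small RNA pathway that shapes organ polarity, was flanked on both sides within 1000 bp (26100264 to 26101165, scores 2.69 and 1.95, and 26105150 to 26106026, scores 2.33 and 1.94). HB33, a zinc finger homeodomain gene, had a summit in the gene (28242393 to 28243784; 2.04 and 1.98) and another within 1000 bp (28239237 to 28240736; 1.88 and 1.89). AGO7 was chosen after its values were seen.

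Within 50 kb of the span left out over the tagged gene there were 5 shared regions. The nearest on each side lay 12.7 kb before it, within 3000 bp of IPT1, a gene of cytokinin synthesis (25666619 to 25667164; 2.58 in replicate 1 and 2.03 in replicate 2), and 17.95 kb after it, by BBX14 (25710769 to 25711920; 1.88 and 2.03). A region of replicate 2 alone by AT1G68490 lay 2.14 kb after the span and scored 1.94. The highest peaks over JAG itself scored 14.54 in replicate 1 and 16.96 in replicate 2. The transgene adds copies of JAG sequence that the wild type lacks. How far its genomic fragment reaches is not stated, and its part in the peaks beside the span was not tested.

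Groups of genes were then counted. A shared summit lay in the gene or within 3000 bp for 196 of 1762 protein-coding genes of the stretch (11.1%), of which 16 had more than 1 region. Over 18 lists of developmental, hormone and comparison genes, 11 of 77 genes had a region (14.3%), a share near that of all genes. The lists hold chosen genes and not whole families, so their counts are not family totals. No test of a list was made. The list of C2H2 zinc finger genes had 2 of 4: ZFP4 (above) and IDD14, a factor of shoot gravitropism (25531479 to 25532574; 2.58 in replicate 1 and 1.95 in replicate 2). AP2/ERF factors had 2 of 6. They were RAP2.4, a factor that promotes dedifferentiation at wounds (29364191 to 29367563; 2.17 and 2.02), and ORA47, a factor of jasmonate synthesis (28145090 to 28146234; 2.19 and 2.00), with AT1G74940 nearer to that summit.

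Organ boundary and meristem genes had 1 of 5, the receptor kinase CLV1, which limits the number of stem cells (28466210 to 28468808; 2.20 in replicate 1 and 2.44 in replicate 2). Gibberellin genes had 1 of 3, ATGA2OX1, since the region nearest to RGL1 lay outside the window. Cytokinin genes had 1 of 3, IPT1, and cell cycle genes 1 of 6, CDKD1;1, a kinase that activates other cyclin-dependent kinases. Homeobox genes outside the KNOX and BELL families had 1 of 6, HB33. WRKY genes had 1 of 7, ABO3, a factor of the abscisic acid response (24847747 to 24848336; 2.15 and 2.28). MADS-box genes had 1 of 8, AGL66, a factor of pollen, at a weak region (29318623 to 29319163; 1.98 and 1.89) with AST56 nearer. No shared region lay near any of the 6 auxin, 5 SAUR, 3 TCP, 4 brassinosteroid and ethylene, 3 other flowering time, 3 cell wall or 1 TOPLESS family genes, nor near the 2 photosynthesis and 2 housekeeping genes. Regions of a single list did lie near 1 auxin, 2 SAUR, 2 TCP, 3 brassinosteroid and ethylene, 1 cell wall and 1 TOPLESS family genes. The listed genes of other flowering time, photosynthesis and housekeeping had none of these either. They are too few to stand for their groups. RBCS1A, a photosynthesis gene outside the lists, had a region of replicate 1 alone within 1000 bp (25047089 to 25050122; 2.09).

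JAZ proteins, which repress jasmonate responses until the hormone triggers their breakdown, were counted after their values were seen. All 3 JAZ genes of the stretch had a shared region within 3000 bp, TIFY7 (above), JAZ6 (27276310 to 27280302; 2.29 in replicate 1 and 2.12 in replicate 2) and TIFY10B, also known as JAZ2, whose region was the one at ORA47. ARR15, a type-A response regulator that damps cytokinin signalling, was likewise noticed afterwards, and its region was among the weakest (28132622 to 28133687; 1.93 and 1.90). These 4 genes were chosen after their regions had been seen, so their count says nothing beyond their own values, beside the 11.1% of all genes.

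Regions of a single list numbered 189. Their median score was 1.98 in replicate 1 and 2.03 in replicate 2, and the highest were 2.96 and 2.67. In replicate 1 the 5 highest were in LOX4, a lipoxygenase of jasmonate synthesis (27309275 to 27310766; 2.96), near AT1G69420 (26092462 to 26093346; 2.90), near AT1G72420 (27263780 to 27264620; 2.85), near AP1 (25985660 to 25989207; 2.81) and near bZIP44 (28292148 to 28293335; 2.69). AP1, which sets the identity of floral meristems, sepals and petals, lay within 3000 bp of that summit, and the nearest peak of replicate 2 was 48001 bp away. The region by bZIP44 lay 239 bp from the shared region of the same gene.

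In replicate 2 the 5 highest were in ZFP1, a C2H2 zinc finger gene (30340129 to 30340740; 2.67), in AT1G78260 (29447369 to 29448438; 2.63), near EMB2813 (25204127 to 25204636; 2.53), near MYB114, an activator of anthocyanin synthesis (24760425 to 24760970; 2.39), and near AT1G75560 (28374733 to 28375103; 2.33). A peak of replicate 1 lay 74 bp from the region in ZFP1, though the peaks did not overlap. The region near EMB2813 lay 427 bp from a shared region with its summit in that gene (25205063 to 25205617; 2.04 in replicate 1 and 2.48 in replicate 2). Of the 125 regions of replicate 1 alone, 11 had a peak of replicate 2 within 1000 bp, and of the 64 of replicate 2 alone, 6 had a peak of replicate 1 within that distance. Most single-list regions were thus without a near neighbour in the other list.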

How the data were processed

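Chromatin from JAG-GFP and wild-type inflorescence tips was precipitated with anti-GFP beads and sequenced, per the labels' protocols. The submitters' processing notes name CASAVA 1.8 and TAIR10. The peak lists give a start, end, width, summit position and score for each peak, per the file headers. The score was deposited by the authors. Its caller, cutoff and control are not given in any label or header used here. Other deposited values are positions in bp. Depth per library is unknown, so no detection limit was computed.

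Peaks of lists 1 and 2 were merged at an overlap of 1 bp with Python 3.11.15 and pandas 2.3.3. The best peak of each list was taken, the merged summit is the median of their summits, and ranks are within the whole list. Genes were taken from a RefSeq table of TAIR10.1, whose coordinates are not printed. All 82 listed loci matched it, of which 77 entered the counts over the 18 lists and 5 did not. Merging and placing were tested on simulated peaks. The members and lists were chosen with earlier results of these data known. Named were the 25 best shared regions by mean rank, listed genes with a shared region, and the 5 best single-list regions of each list. Promoter words were not searched and no sequence is printed, because no genome or sequence table was at hand. Wilson intervals at 95% came from statsmodels 0.14.6.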

Additional observations from a re-analysis of the deposited data

How the results depend on the processing

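No paired analysis was possible because the peak lists hold no value per sample and no test was made. The count of 113 shared regions was 111 with an overlap of 50% of the shorter peak, 86 when any peak of one list had its summit within 250 bp of that of any peak of the other in the region (not only the highest peaks, whose summits give the distances reported above), 108 with the stretch started at 24000000 and 114 with the span over JAG kept. It was 48 with the upper 50% of each list by score, since fewer peaks then enter. All of the 25 best regions were among these 48, which follows from their choice by score rank. Of the 25, 23 had a pair of summits within 250 bp by the rule that gave 86. With 1 list left out there is no sharing to count. Depth is unknown, so a region missing from a list cannot be told from one below its cutoff. Promoter words were planned but not searched, for want of sequence.

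Summits within 1000 bp of a gene but outside it, 48.7% of all, became 35.4% when the limit was 500 bp, and ran from 48.7 to 49.6% with the summit of only 1 list. The count of 196 genes was 109 within 1000 bp, 83 within 500 bp and 84 with the upper 50% by score. With only 1 list it was 315 without replicate 1 and 396 without replicate 2. Listed genes numbered 11 (14.3%, beside 11.1% of all genes of the stretch). Within 1000 bp they were 7 (9.09%, beside 6.19% of all genes). With the upper 50% by score they were 4 (5.19%, beside 4.77%), a share close to that of all genes. They were 18 without replicate 1 and 26 without replicate 2. The last 2 counts are 23.4% and 33.8% of listed genes, beside 17.9% and 22.5% of all genes of the stretch in the same settings. The difference in score percentile of shared and single-list peaks, a mean of 21.9 over the lists, ran from 17.7 to 26.7.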
